A study of Mus musculus with 34 samples.

Results

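Of 11808 distinct STARR-seq peaks that lay in open chromatin of activated mouse B cells, 1582 (13.4%) stood more than 1 kb from every H3K4me3 peak and overlapped an H3K27ac peak by at least 1 bp. These regions are called distal acetylated enhancers here. They are described by where they lie, by the RNA of their nearest genes in resting and activated cells, and by the genes that Hi-C contacts link to them. The peak lists chose the regions, so peak positions and widths are given as a description, with no test, while the RNA values and the contacts played no part in the choice. For comparison, 2615 STARR peaks in open chromatin were distal and lacked H3K27ac, 7611 lay within 1 kb of an H3K4me3 peak, and 5680 further open regions were distal and acetylated but overlapped no STARR peak.

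The cells were splenic B cells of C56BL/6J mice (spelled as in the series design), 6 to 8 weeks old, purified as the CD43-negative fraction by magnetic labelling. The activated cells had been in culture for 3 days (72 h) with lipopolysaccharide (LPS, from Salmonella typhimurium) at 10 µg per ml, and the resting B cells were the controls, although the culture fields in the resting samples' labels also name LPS. No genetic alteration is named for either group. RNA-seq covered 2 activated and 2 resting samples. The FAIRE-seq (open chromatin), STARR-seq, ChIP-seq for H3K27ac and H3K4me3 and Hi-C used here were taken from activated cells. ChIP-seq of resting cells for H3K27ac and H3K4me1 is also part of the series and was not used. The STARR plasmid library, made from FAIRE DNA, entered the cells 48 h or 60 h after LPS, and its RNA was read 24 h or 12 h later. Whether replicates were separate mice or cultures is not labelled, so each p-value reflects the spread of these samples alone, which could be technical.

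An enhancer is a stretch of DNA that binds transcription factors and raises transcription from a promoter that may lie far away along the chromosome. Acetylation of histone H3 at lysine 27 (H3K27ac) marks active enhancers and promoters, and trimethylation of lysine 4 (H3K4me3) marks promoters. In STARR-seq a DNA fragment placed behind a reporter promoter drives its own transcription, so that activity is read outside the fragment's own place in the genome. In B cells distal enhancers are known to bind factors such as the octamer-binding, ETS, AP-1, IRF and NF-kB families, and the passage to the plasma cell state replaces much of the mature B cell programme with that of secretion.

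The promoters of 4 genes whose distal acetylated enhancers are described below are shown because Hi-C contacts of these regions end near an H3K4me3-marked end of their loci. The sequences are from RefSeq on build GRCm38.p6, not the mm9 build of the peak lists, and each holds the 250 bases before the gene's start, read 5′ to 3′ in the gene's direction. Capitals mark matches, on either strand, to the octamer ATGCAAAT, the AP-1 word TGANTCA, the ETS word AGGAAG, an NF-kB word (GGGA and TTCC with 2 free bases between them) or an IRF word (GAAA and GAAA with 2 free bases between them). The lines belong to Prdm1 (chr10:44458749-44458998, minus strand), Ctla4 (chr1:60908775-60909024, plus strand), Il6st (chr13:112463820-112464069, plus strand) and Map3k1 (chr13:111808994-111809243, minus strand).
Prdm1: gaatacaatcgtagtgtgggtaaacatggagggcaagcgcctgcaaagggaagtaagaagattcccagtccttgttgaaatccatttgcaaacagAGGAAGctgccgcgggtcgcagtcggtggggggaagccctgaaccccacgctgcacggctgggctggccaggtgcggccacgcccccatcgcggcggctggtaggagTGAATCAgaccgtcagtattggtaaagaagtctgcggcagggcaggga
Ctla4: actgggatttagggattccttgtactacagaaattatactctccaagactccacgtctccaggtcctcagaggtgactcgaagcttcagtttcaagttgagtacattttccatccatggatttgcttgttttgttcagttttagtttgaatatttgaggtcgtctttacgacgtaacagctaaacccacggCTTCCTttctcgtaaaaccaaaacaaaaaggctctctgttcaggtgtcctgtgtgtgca
Il6st: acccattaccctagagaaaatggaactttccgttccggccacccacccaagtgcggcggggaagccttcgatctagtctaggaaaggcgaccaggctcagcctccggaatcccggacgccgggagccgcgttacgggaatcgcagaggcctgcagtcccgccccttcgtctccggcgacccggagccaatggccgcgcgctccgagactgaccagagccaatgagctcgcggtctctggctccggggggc
Map3k1: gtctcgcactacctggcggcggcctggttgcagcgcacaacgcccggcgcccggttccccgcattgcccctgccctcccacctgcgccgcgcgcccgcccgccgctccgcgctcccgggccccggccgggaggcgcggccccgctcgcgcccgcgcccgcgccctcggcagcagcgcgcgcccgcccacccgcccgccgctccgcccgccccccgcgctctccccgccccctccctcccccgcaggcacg
Prdm1 held an ETS word ending 149 bases and an AP-1 word ending 41 bases before the start. Ctla4 held an ETS word on the reverse strand, written here as CTTCCT, ending 53 bases before the start, and the windows of Il6st and Map3k1 held none of these letters. Among 32851 mouse promoters of the same length the ETS word stood in 29.5%, the AP-1 word in 6.75%, the IRF word in 2.98%, the octamer in 1.6% and the NF-kB word in 1.21%. The AP-1 word, in which N is any base, reads the same on both strands only as a pattern. Its match in Prdm1, TGAATCA, has an A in that place and reads TGATTCA on the other strand. None of the matches in the printed windows overlapped another. A match is a description of letters and not a bound site.

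Most distal acetylated enhancers lay in or close to genes. A gene's locus held 736 of them (46.5%), 305 (19.3%) lay up to 10 kb outside the nearest locus, 191 (12.1%) at 10 to 25 kb, 268 (16.9%) at 25 to 100 kb and 82 (5.18%) farther than 100 kb from every gene. Those outside a locus stood at a median of 18.4 kb from it, against 15.5 kb for distal STARR peaks without H3K27ac and 15.2 kb for acetylated distal open regions without STARR activity. The share inside a locus was 42.9% and 54.8% in these 2 classes, and 31.7% among STARR peaks near H3K4me3. The files give neither exons nor strand, so a region inside a locus could not be placed in an exon, intron or UTR.

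**Figure D1:**
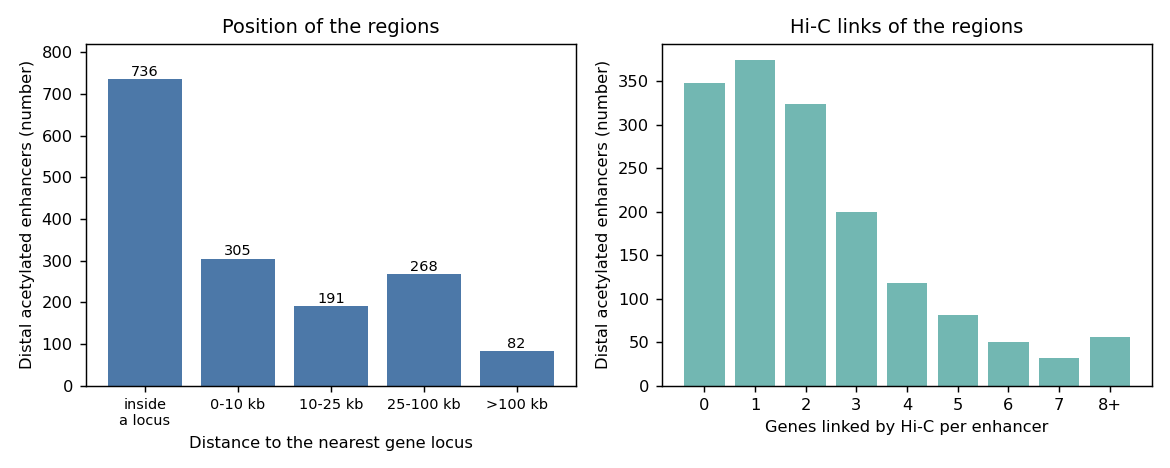
Left, the number of distal acetylated enhancers in each class of distance (kb) from the nearest gene locus; right, their number by how many genes Hi-C contacts linked to each. The tallest bar on the left is the 736 inside a locus, and on the right most enhancers had 0 to 3 linked genes.

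The median distance to the nearest H3K4me3 peak was 15.8 kb, with quartiles at 6.24 and 35.2 kb and a highest value of 751 kb. At the border of the rule the nearest regions inside it stood 1003, 1005 and 1012 bp from an H3K4me3 peak, and the nearest outside it 967, 972 and 997 bp. The smallest overlap with H3K27ac was 1 bp, and the closest distal STARR peaks left out stood 0 and 2 bp from an H3K27ac peak. Only 27 of them lay within 1.2 kb of H3K4me3, so few regions stood near that border. Every class of peak had a median width of 301 bp. Over the distal acetylated enhancers the widest overlapping H3K27ac peak had a median width of 1666 bp (quartiles 930 and 2959 bp). A peak counted here once for each enhancer in it. Over all H3K27ac peaks, each counted once, the median was 1037 bp. These medians are not like with like, since a wide peak also meets the overlap rule more easily. Of the enhancers, 1196 (75.6%) lay wholly inside H3K27ac, and 175 had less than 50% of their length in it. The median offset from the centre of the H3K27ac peak was 304 bp, about the width of a STARR peak.

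The regions were mostly solitary. When close regions were joined into groups, with no gap inside a group over 12.3 kb and none between groups under 12.7 kb, 1151 (72.8%) stood alone, and the other 431 formed 162 pairs, 25 groups of 3 and 7 groups of 4 or more. The median distance to the nearest other region of the class was 71.6 kb. Chromosome 1 carried 150, chromosome 2 148 and chromosome 11 120 of them, while chromosome X carried 7 (0.442%). The share on X was 2.45% for distal STARR peaks without H3K27ac, 1.04% near H3K4me3 and 0.775% for acetylated distal open regions without STARR activity.

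Among the largest groups was one of 5 enhancers within 6.5 kb between Fcrlb and Dusp12 (chr1:172825525-172832026, mm9), beside the Fc receptor genes. Groups of 4 lay 41.5 to 45 kb from Tgfbr2 (chr9:116125816-116129680), a receptor of the inhibitory cytokine TGF-beta, and inside Adap1 (chr5:139759483-139782488). A further group of 4 lay 23.9 to 30.5 kb from Il6st (chr13:113223674-113230491), which encodes gp130, the signalling chain shared by receptors of the IL-6 family. The remaining groups of 4 stood at chr3:100240747-100248294 and at chr14:122452359-122463324, the latter with contacts to Ubac2 and Gpr183.

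The RNA of the nearest genes asks whether these enhancers of activated cells lie beside genes that rise or fall on activation. Among genes nearest to a distal acetylated enhancer, 232 were higher and 286 lower in activated than in resting cells. Lower genes included the regulator gene Bach2 and the complement receptor gene Cr2. Higher genes included the plasma cell regulator gene Prdm1, the cytokine gene Il10 and the receptor genes Ctla4 and Il2ra. In all, 1101 genes were nearest (within 100 kb) to at least 1 enhancer, and 844 of them passed the filter on low values and were tested. The counts come from limma on log2(FPKM + 1) (Benjamini-Hochberg adjusted p under 0.05), and are 27.5% higher and 33.9% lower of the tested nearest genes. Over all 10863 tested genes the same fit called 28.2% higher and 26.2% lower (54.4% in either direction).

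The share of higher genes among the nearest genes was thus close to that of all genes, and the share of lower genes above it. These counts depended on the resting replicates. Without resting replicate 1 the nearest genes had 158 higher (19.3%) and 173 lower (21.1%) calls, and without resting replicate 2 172 higher (21%) and 170 lower (20.8%). In the same fits 16.9% and 20.8% of all genes were higher, and 12% and 11.6% lower. The share lower thus stood above that of all genes in both fits with a resting sample left out, while lower calls no longer outnumbered higher ones without resting replicate 2. In bulk samples fewer cells of a type and less RNA per cell cannot be told apart. The median log2 change of the tested nearest genes was -0.11, against 0.03 over all tested genes.

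The share of lower nearest genes was 33.8% beside acetylated distal open regions without STARR activity, 29.3% beside distal STARR peaks without H3K27ac and 23.3% at STARR peaks near H3K4me3. The shares of higher genes in these classes were 26.9%, 28.2% and 30%. The acetylated distal classes with and without STARR activity thus had nearly the same shares of higher and lower genes, and no difference between classes was tested, since a gene can be nearest to regions of several classes. Where an enhancer lay inside the locus of its gene, 119 of 458 tested genes were higher (26%) and 174 lower (38%). Where none did, 113 of 386 were higher (29.3%) and 112 lower (29%). The groups did not overlap in 710 (84.1%) of the tested nearest genes, against 80.6% of all tested genes.

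**Figure D2:**
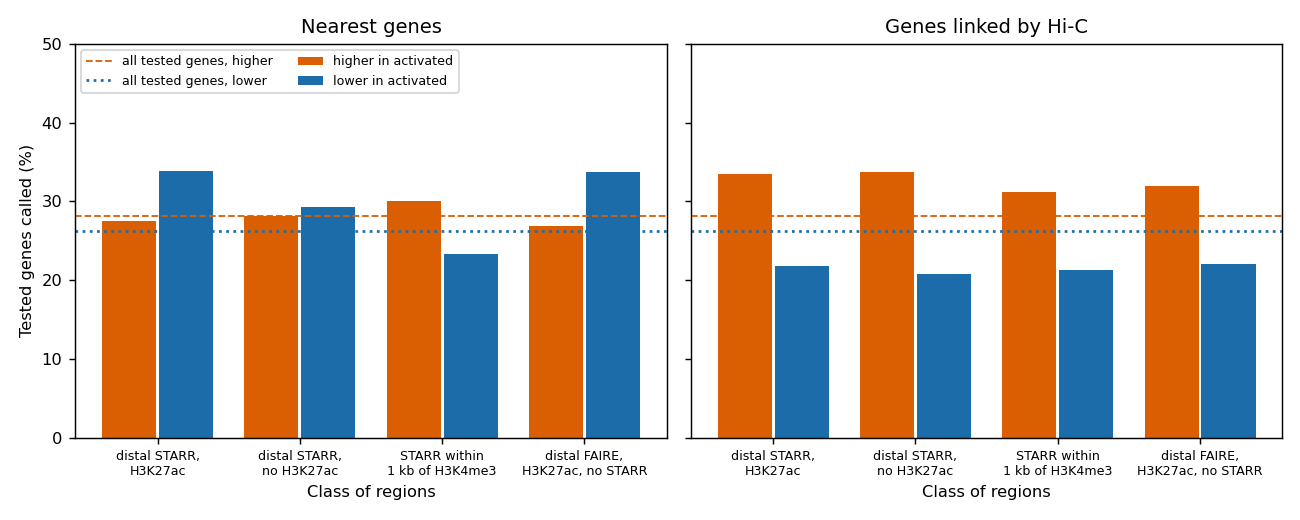
Percent of tested genes called higher or lower in activated than in resting cells (limma adjusted p under 0.05), for the nearest and for the Hi-C linked genes of each class of regions, beside all tested genes. Nearest genes of distal acetylated enhancers were lower in 33.9% and higher in 27.5%, and their linked genes lower in 21.8% and higher in 33.5%.

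The nearest genes were mostly expressed. Of the 1101, 808 (73.4%) had at least 1 FPKM in both activated samples, against 41.9% of all genes in the table, and 57 were listed at 0 in all 4 samples. The median over all 1101 nearest genes, tested or not, was 9.02 and 8.91 FPKM in the resting and 9.15 and 8.62 FPKM in the activated samples. These medians lay between 3.89 and 4.09 FPKM in each sample for genes nearest to distal STARR peaks without H3K27ac. Beside acetylated distal open regions without STARR activity they were 8.25 and 8.2 FPKM in the resting and 7.86 and 7.55 FPKM in the activated samples. At STARR peaks near H3K4me3 they lay between 10.2 and 11.6 FPKM, so this level was not particular to distal acetylated enhancers. Most nearest genes had 1 enhancer (843), 173 had 2 and 85 had 3 or more. The share of lower genes was 33.1%, 35.7% and 37% and the share of higher genes 27.3%, 27.9% and 28.8% in these 3 classes.

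Among the 12 genes with the most enhancers, calls in both directions were found. Bach2, a repressor that holds back plasma cell differentiation, was nearest to 5 enhancers at 26.1 to 81.6 kb. Its values were 43.2 and 37.2 FPKM in resting and 11.7 and 10.7 FPKM in activated cells (log2 change -1.75 ± 0.16, SE, n = 2 per group, limma adjusted p = 0.000276), a 3.37-fold fall on the scale of FPKM + 1 used for every fold below. The groups stood well apart, and no contact linked any of these 5 enhancers to Bach2. Susd1, nearest to 5, had 25.2 and 26.3 FPKM in resting and 10.7 and 8.6 FPKM in the activated samples (limma adjusted p = 0.00083).

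Rad51b, a gene of recombination repair, was the one gene of the 12 that rose, from 0.621 and 0.381 FPKM to 3.2 and 3.6 FPKM (log2 change 1.55 ± 0.16, limma adjusted p = 0.000484). Of its 6 enhancers 4 lay inside the locus, 145 to 186 kb from the nearer gene end, and 1 was linked to Rad51b by Hi-C while 3 were linked to Zfp36l1, an RNA-binding protein gene. Ninj2 was nearest to 8 enhancers, 6 of them inside it, and was not tested. It was listed at 0 in both resting samples and activated replicate 1 and at 0.149 FPKM in activated replicate 2. All 8 had contacts with other genes, and 5 were linked to the kinase gene Wnk1, which had 43.9 and 40.7 FPKM in resting and 54.6 and 50.5 FPKM in the activated samples (limma adjusted p = 0.168). The gene with the most enhancers beside it was therefore hardly expressed in these cells.

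Smaller falls stood at other genes with 5 enhancers each. Ebf1, a factor of B cell identity, had 35.9 and 26.9 FPKM in resting and 22.3 and 14.4 FPKM in the activated samples (limma adjusted p = 0.0369). Without activated replicate 2 the adjusted p was 0.138 and without resting replicate 1 it was 0.192. Atf7ip (limma adjusted p = 0.0138) lost its call without activated replicate 2 (adjusted p = 0.0514) and without resting replicate 1 (adjusted p = 0.0952). Cmah (limma adjusted p = 0.00541) lost its call without resting replicate 1 (adjusted p = 0.0557). The groups of these 3 genes did not overlap, with every activated value below every resting one. Fchsd2, Ubac2 and Lrrc8c were not called (limma adjusted p = 0.0544, 0.0784 and 0.539).

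**Figure D3:**
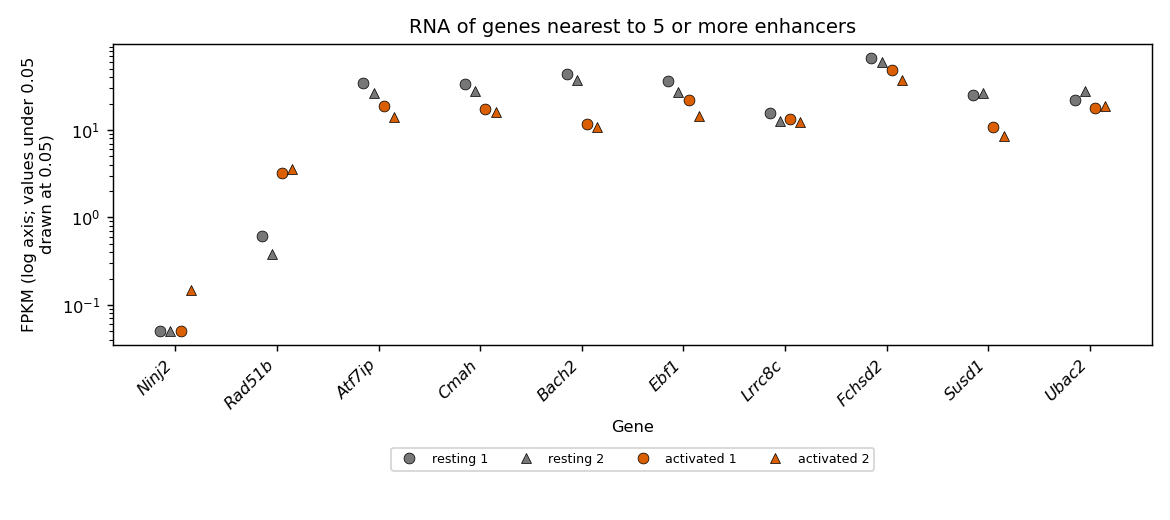
RNA level (FPKM, log axis) in each resting and activated sample of genes nearest to many distal acetylated enhancers, with values under 0.05 drawn at 0.05. Bach2 and Susd1 were lower in both activated samples and Rad51b was higher.

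The 10 largest rises among nearest genes were those of Prdm1, Ctla4, Il2ra, Nek2, Il10, Eaf2, Bub1b, Pim1, Il6 and Rilpl2. Prdm1, which encodes Blimp-1, the repressor that drives plasma cell differentiation, had 1.23 and 1.26 FPKM in resting and 61.3 and 75.8 FPKM in activated cells. Its log2 change was 4.94 ± 0.16, a 30.8-fold rise (limma adjusted p = 1.58e-05), and its nearest-gene enhancer lay 80.7 kb away. Il2ra, the high-affinity chain of the IL-2 receptor, had 0.871 and 1.08 against 30 and 21.3 FPKM (13.3-fold, limma adjusted p = 5.91e-05), with 2 enhancers inside the locus. Prdm1 and Il2ra were each near the lower end of the scale in both resting samples and far from it in both activated samples.

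Ctla4, an inhibitory receptor best known from T cells, rose from 0.162 and 0.498 FPKM to 15.2 and 18.5 FPKM (log2 change 3.75 ± 0.20, 13.5-fold, limma adjusted p = 5.65e-05). Its 2 enhancers, chr1:60959363-60959662 and chr1:60959699-60959999 on mm9, lay 6.36 and 6.02 kb from the nearer gene end and shared 1 contact with it of 189 reads. The anchors of that contact were 5000 bp wide, not much less than the distance itself. What closeness along the chromosome adds to its reads was not tested. Il10, the anti-inflammatory cytokine, rose from 0.1 and 0.307 FPKM to 10.9 and 16 FPKM (11.8-fold, limma adjusted p = 8.05e-05). Of its enhancers the one 32.2 kb away was linked to it by 120 reads, and the other lay 9.12 kb away. Il6 was listed at 0 and 0.0633 FPKM in resting and had 14.6 and 5.07 FPKM in activated cells, with an enhancer 40.2 kb away (limma adjusted p = 0.00198). The kinase gene Pim1 rose from 22.9 and 21.4 to 212 and 246 FPKM (9.90-fold, limma adjusted p = 6.48e-05). The other large rises named by the same rule were those of Nek2 and Bub1b (mitosis), Eaf2 (transcription elongation) and Rilpl2.

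The 10 largest falls were those of Hbb-b1, Icosl, Cr2, Cd55, S1pr1, Asb2, Egr3, Sorl1, Pcp4 and Cnr2. Icosl, the ligand of the costimulator ICOS, had 148 and 137 FPKM in resting and 2.88 and 1.53 FPKM in activated cells (log2 change -5.51 ± 0.22, 45.7-fold, limma adjusted p = 3.17e-05), with an enhancer 13.4 kb away. Cr2, the complement receptor CD21, had 174 and 158 against 11.5 and 7.18 FPKM (16.5-fold, limma adjusted p = 6.87e-05), and its enhancer lay 8.29 kb away. S1pr1, the receptor for sphingosine 1-phosphate that guides exit from lymphoid tissue, had 126 and 130 against 9.99 and 9.14 FPKM (12.2-fold, limma adjusted p = 4.02e-05). In these 3 genes the activated values lay far below the resting ones, although the enhancers beside them carried H3K27ac and STARR activity in activated cells. H3K27ac of resting cells was not examined.

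Cnr2, the peripheral cannabinoid receptor of B cells, fell from 77.2 and 69 to 11 and 7.77 FPKM (7.21-fold, limma adjusted p = 0.000112). Both of its enhancers lay inside the locus and reached its marked end, only 4.84 and 7.45 kb away, with up to 218 reads. What closeness adds to these reads was not tested. Cd55, Asb2, Egr3, Sorl1 and Pcp4 also fell, by 13.8-fold, 11-fold, 8.46-fold, 7.68-fold and 7.60-fold. Hbb-b1, a globin gene of red cells, had 393 and 2324 FPKM in resting and 11.5 and 4.24 FPKM in the activated samples (limma adjusted p = 0.0148). Its adjusted p was 0.101 and 0.127 without activated replicates 1 and 2. Alas2, the heme synthesis enzyme gene of red cells, had 11.9 and 95.5 FPKM in resting and 0.179 and 0.112 FPKM in activated samples. Reads may be shared between Hbb-b1 and its near-identical copy Hbb-b2.

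Other cell types bear on the resting values. The summed FPKM of 7 macrophage and monocyte markers was 385 and 733 in the resting and 0.626 and 7.22 in the activated samples, with C1qa and C1qb listed at 0 in both activated samples and 6 of the 7 called lower. The 6 T cell markers summed to 22.1 and 30.1 against 2.56 and 1.61 FPKM, with Cd3e, Cd3d and Cd3g at 0 in activated cells, and the 3 NK cell markers to 6.12 and 11.7 against 1.01 and 0.392 FPKM, with Ncr1 and Klrd1 at 0. The 3 endothelial markers summed to 67.8 and 55.6 against 25.5 and 17.7 FPKM, and the 5 dendritic cell markers to 23.2 and 22.6 against 27.4 and 16.5 FPKM. The 4 B cell markers summed to 2826 and 3236 against 1772 and 1293 FPKM, so the labelled cell type was present in every sample. None of the macrophage, T cell or NK cell markers was nearest to a distal acetylated enhancer, while Flt3, Hbb-b1, Pecam1 and Cdh5 were. The part of other cells in the falls of the nearest genes was not tested.

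Genes of B cell function were grouped by role into 12 lists, and their members with a distal acetylated enhancer, nearest or linked by Hi-C, were counted. Such an enhancer belonged to 25.8% of all tested genes (2806). A single contact of 5 reads, at any distance, was enough for a gene to count as linked. In the list of plasma cell and antibody secretion all 10 tested genes with an enhancer were higher, and in the whole list 24 of 26. Besides Prdm1 they held Xbp1, the factor of the secretory programme, with 40.5 and 47.2 against 402 and 466 FPKM (limma adjusted p = 8.83e-05), Igj, the joining chain gene, with 35.8 and 76.6 against 1173 and 1255 FPKM (limma adjusted p = 0.000185), and Atf6, a sensor of the endoplasmic reticulum. Their median log2 change was 2.81, against 2.55 over the whole list. Xbp1 and Igj were each linked by 1 contact, of 8 and 5 reads. All 10 were also called higher with each 1 of the 4 samples left out.

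In the cell cycle list 13 of 15 tested genes with an enhancer were higher and 1 lower, against 28 and 1 of 32 in the whole list. Ccnd2, a D-type cyclin, had 5 linked enhancers and rose from 17.8 and 16.5 to 102 and 181 FPKM (limma adjusted p = 0.000345). The kinase genes Bub1 and Cdk1 had 4 and 3 linked enhancers and rose 9.08-fold and 11.6-fold (limma adjusted p = 0.000148 and 0.000203). The contacts of Bub1 had 5 to 15 reads at 177 to 536 kb, and those of Cdk1 5 to 9 reads at 975 to 1887 kb. Only 2 of these 15 genes were nearest to an enhancer, and 14 were linked by Hi-C. In class switching and DNA repair 4 of 5 were higher and none lower (13 and 0 of 17 in the whole list), among them the mismatch repair gene Msh6, with 13.6 and 13.2 against 32.8 and 41.2 FPKM (limma adjusted p = 0.000872). The uracil glycosylase gene Ung and the exonuclease gene Exo1 rose 3.45-fold and 5.02-fold (limma adjusted p = 0.000416 and 0.000255). Ung was linked by 1 contact of 5 reads at 6977 kb, and Exo1 by contacts of 5 to 17 reads at 411 and 2439 kb. Msh6 had contacts of 10 and 148 reads, with enhancers at 4.9 and 216 kb.

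In the metabolism list 3 of 5 were higher and 1 lower (25 and 1 of 29 in the whole list), with the amino acid carrier gene Slc7a5 at 6.66 and 7.42 against 104 and 139 FPKM (limma adjusted p = 5.01e-05) and 3 linked enhancers. Only 5 of the 30 genes of this list had an enhancer. In the list of survival and death 7 of 10 were higher and none lower (12 and 0 of 18 in the whole list). Bcl2, the survival gene with 3 enhancers inside its locus, had 26.6 and 23.1 against 29.2 and 20.9 FPKM, with overlapping groups (limma adjusted p = 0.982). Pmaip1, which encodes the death protein Noxa, had 18 and 13.2 against 32.7 and 25.3 FPKM (limma adjusted p = 0.0137, and 0.0999 without resting replicate 2).

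The lists of receptors and resting-state genes went the other way. In homing, chemokine and egress receptors 10 of 12 tested genes with an enhancer were lower and 1 higher (15 and 2 of 21 in the whole list). Without resting replicate 1 this count was 6. Cxcr4, the receptor for the chemokine CXCL12, had 142 and 84.9 against 35.3 and 57.9 FPKM (limma adjusted p = 0.0172). Its adjusted p was 0.0633 without activated replicate 1 and 0.097 without resting replicate 1. Ccr7, which leads cells to the T cell zone, had 107 and 112 against 65.5 and 33.2 FPKM (limma adjusted p = 0.0173, and 0.0604 and 0.063 without resting replicates 1 and 2). The 1 higher gene was the integrin gene Itgb1, chosen for mention after its value was seen, with 16.3 and 21.2 against 39.9 and 39.5 FPKM (limma adjusted p = 0.00323).

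Of the B cell receptor genes with an enhancer 9 of 15 were lower and none higher (16 and 0 of 27 in the whole list). The count of lower genes was 5 without activated replicate 2, 5 without resting replicate 1 and 4 without resting replicate 2. Bank1, an adaptor with 3 enhancers inside its locus, had 162 and 152 against 54 and 38.7 FPKM (limma adjusted p = 0.00102). Malt1, a protease of NF-kB signalling, was called (limma adjusted p = 0.0487) and lost its call with each 1 of the 4 samples left out (adjusted p = 0.0646 to 0.243). Of the antigen presentation genes 9 of 17 were lower and none higher (11 and 0 of 19 in the whole list), and 8 or 9 were lower with 1 sample left out. H2-Aa, the class II alpha chain, had 3160 and 3543 against 1053 and 736 FPKM (limma adjusted p = 0.00226) and 1 near enhancer. Contacts of up to 316 reads joined H2-Aa to 4 enhancers at only 3.97 to 67.4 kb. The class I and peptide-loading genes of this list, B2m, H2-K1, H2-D1, Tap1, Tap2, Tapbp, Psmb8 and Psmb9, were not called. All 17 antigen presentation genes were linked by Hi-C, and only 3 were nearest to an enhancer. A single enhancer in the MHC region was linked to H2-DMa, H2-DMb1, H2-DMb2, H2-Oa, H2-K1, Tap1, Tap2, Psmb8 and Psmb9. These genes are therefore not separate cases.

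Transcription factors were the longest list (41 genes) and had the most enhancer-bearing genes, 29. Of these 13 were lower and 6 higher (19 and 8 of 39 in the whole list). The share with an enhancer was larger among antigen presentation genes, 17 of 19. The count of lower factors was 7 without either resting replicate. Pax5, the guardian of B cell identity, had 3 enhancers inside its locus and fell from 95.9 and 93.8 to 35.4 and 34.9 FPKM (limma adjusted p = 0.000866). Foxo1, a factor of quiescence, had 3 near enhancers and fell from 54.4 and 49.9 to 26.2 and 27.9 FPKM (limma adjusted p = 0.00381). The 6 higher factors were Mef2b, Pou2af1, Tcf4, Myc, Batf and Bhlhe41. Of these Batf, an AP-1 partner needed for class switching, had 11.6 and 12.2 against 104 and 76.6 FPKM, and Pou2af1, the octamer coactivator, had 246 and 272 against 670 and 847 FPKM (limma adjusted p = 0.000112 and 0.00248). Batf and Pou2af1 were picked from the higher factors after their values were seen.

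In Toll-like receptor and NF-kB signalling 6 of 14 were lower and 2 higher (16 and 4 of 36 in the whole list). Tlr1 fell from 107 and 103 to 26.6 and 13.8 FPKM, while Nfkbiz, an inducible nuclear NF-kB cofactor with 2 near enhancers, rose from 9.99 and 10.8 to 29.7 and 23 FPKM (limma adjusted p = 0.000924 and 0.00145). Nfkb1 had 47.3 and 45.6 against 52.4 and 54.6 FPKM (limma adjusted p = 0.348). Of the costimulation genes 7 of 14 were lower and 5 higher (11 and 8 of 27 in the whole list), with 4 and 3 lower without resting replicates 1 and 2. Cd44, an adhesion receptor, rose from 25 and 28.3 to 56.2 and 64.9 FPKM, and the PD-1 ligand gene Cd274 fell from 29 and 21.2 to 12.6 and 8.58 FPKM (limma adjusted p = 0.00212 and 0.00556). Among cytokine genes and their receptors 7 of 12 were lower and 4 higher (15 and 7 of 29 in the whole list). Without activated replicate 1 or 2 the higher count was 2, and without resting replicate 2 the lower count was 4. The higher genes were the cytokine genes Il10 and Il6, the receptor gene Il21r and the feedback inhibitor gene Socs3, and 6 of the 7 lower ones encode receptor chains.

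Hi-C contacts joined 1264 (79.9%) of the distal acetylated enhancers to another place on their chromosome. The share was 58.9% of distal STARR peaks without H3K27ac, 92% of STARR peaks near H3K4me3 and 19.2% of acetylated distal open regions without STARR activity. The series design says that enhancers found by STARR and FAIRE were connected to active promoters by Hi-C, so the contact list was built in part on the same peaks. The shares with a contact and the activity of linked genes are therefore partly set by how the list was made and are a description. The contacts were taken from pooled replicates and have no replicate check. The list's 27903 distinct contacts included 3592 (12.9%) with a distal acetylated enhancer in an anchor, each with 5 to 359 reads and a median of 7.

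The median contact spanned 347 kb (quartiles 97.7 and 1503 kb), against 371 kb over all contacts. Of these contacts 25.4% were shorter than 100 kb and 35.7% longer than 1 Mb, and over the whole list 35.8% were longer than 1 Mb. Span and resolution moved together. The 159 contacts of 500-bp anchors had a median span of 9.79 kb, the 422 of 1000-bp anchors 81.2 kb, the 907 of 2000-bp anchors 217 kb and the 2104 of 5000-bp anchors 1288 kb. An enhancer with any contact had a median of 2 contacts and 2 linked genes, with highest values of 28 and 21. A gene was called linked where an end of its locus lay within 1 kb of an H3K4me3 peak and within 1 kb of the other anchor.

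In 1234 enhancers with a linked gene there were 3555 pairs of an enhancer and a gene, and in 293 of these pairs (8.24%) the linked gene was the nearest one. The 293 enhancers of these pairs were 23.7% of those with a linked gene. Only a gene with an H3K4me3-marked end could be linked, and of the 942 enhancers with a linked gene whose nearest gene had such an end the 293 were 31.1%. In all, 2484 genes were linked and 2362 of them tested. In activated cells 792 were higher (33.5%) and 514 lower (21.8%), against 28.2% and 26.2% of all tested genes. The median log2 change of the linked genes was 0.15. The H3K4me3 peaks were those of activated cells, so linked genes were chosen in part by their state in those cells. A marked end was found for 12108 genes, and shares over these were not computed. The comparison with all tested genes is therefore not like with like. Linked genes of the other 3 classes of regions had shares of 31.2% to 33.7% higher and 20.8% to 22.1% lower, so that the classes had nearly the same shares and, sharing many genes, were not tested against each other.

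Among genes that were nearest gene and Hi-C partner of the same enhancer, 77 of 254 tested were higher (30.3%) and 74 lower (29.1%). Among genes that were linked but never nearest, 673 of 1962 were higher (34.3%) and 390 lower (19.9%). Contacts with anchors of 500 or 1000 bp gave 125 higher (27.8%) and 127 lower (28.3%) of 449 linked genes, so that the excess of higher genes was not seen among the contacts of finest resolution. Contacts of at least 10 reads kept 707 enhancers and gave 264 higher (31.1%) and 206 lower (24.2%) of 850. Without resting replicate 1 the linked genes had 475 higher and 286 lower calls, and without resting replicate 2 577 and 264.

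**Figure D4:**
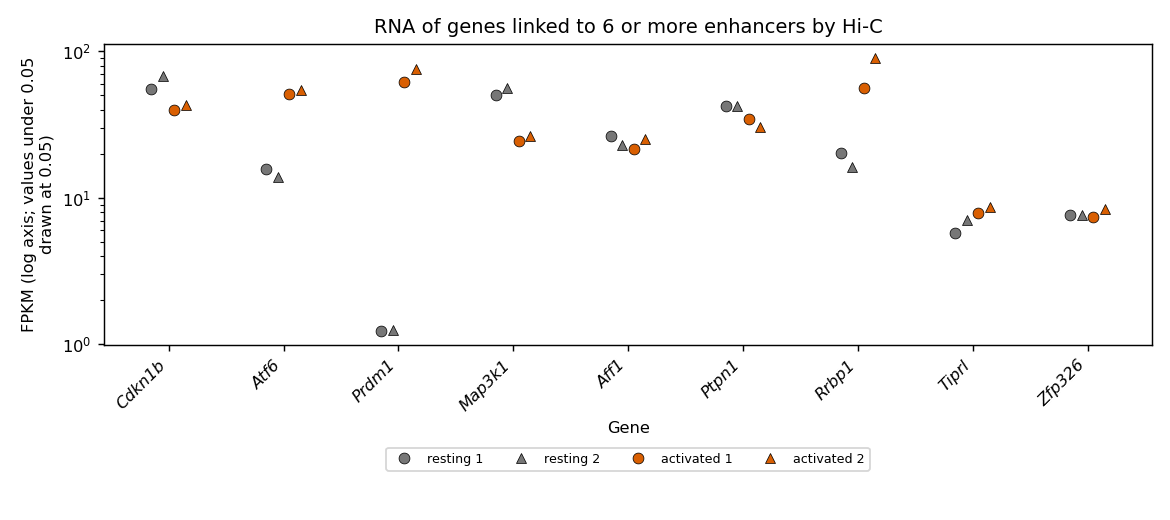
RNA level (FPKM, log axis) in each resting and activated sample of genes linked by Hi-C to many distal acetylated enhancers. Prdm1 rose from 1.23 and 1.26 FPKM to 61.3 and 75.8 FPKM, Atf6 and Rrbp1 rose, and Map3k1 and Cdkn1b were lower in both activated samples.

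Prdm1 was linked to 7 enhancers, none of them its nearest-gene enhancer. On one side 5 stood at 149, 176, 230, 246 and 250 kb, between chr10:44327208 and chr10:44428982 (mm9), in a stretch with no gene within 100 kb of any of them. Their contacts with Prdm1 had 40, 53, 53, 36 and 36 reads at most. Another lay 542 kb away near Prep, with up to 53 reads, and the last, on the other side, 136 kb away near Atg5, with 7 reads. The enhancer nearest to Prdm1, 80.7 kb away, had no contact with it in the list.

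Map3k1, a kinase of the JNK pathway, was linked to 7 enhancers on one side of it, at 121 to 631 kb and with 6 to 69 reads a contact. It had 50.4 and 55.8 FPKM in resting and 24.3 and 26.4 FPKM in activated cells (log2 change -1.04 ± 0.17, limma adjusted p = 0.00248), with both activated samples below both resting ones. The 4 closest, between 121 and 195 kb, had no gene within 100 kb. The other 3 lay at 629, 630 and 631 kb in the group beside Il6st and shared 1 contact with Map3k1 of 16 reads. The same 3 enhancers shared 1 contact of 97 reads with Il6st, 23.9 to 25.7 kb away. Il6st had 7.78 and 6.82 FPKM in resting and 15.3 and 15.6 FPKM in activated cells (log2 change 0.99 ± 0.15, limma adjusted p = 0.00187). Another 2 enhancers lay inside the Map3k1 locus and had no contact with its marked end. A single group of enhancers was thus linked to a gene that rose and to a gene that fell, with more reads for the one that rose and lay closer. These 3 enhancers share anchors of 5000 bp, so the contacts cannot be assigned to any 1 of them.

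**Figure D5:**
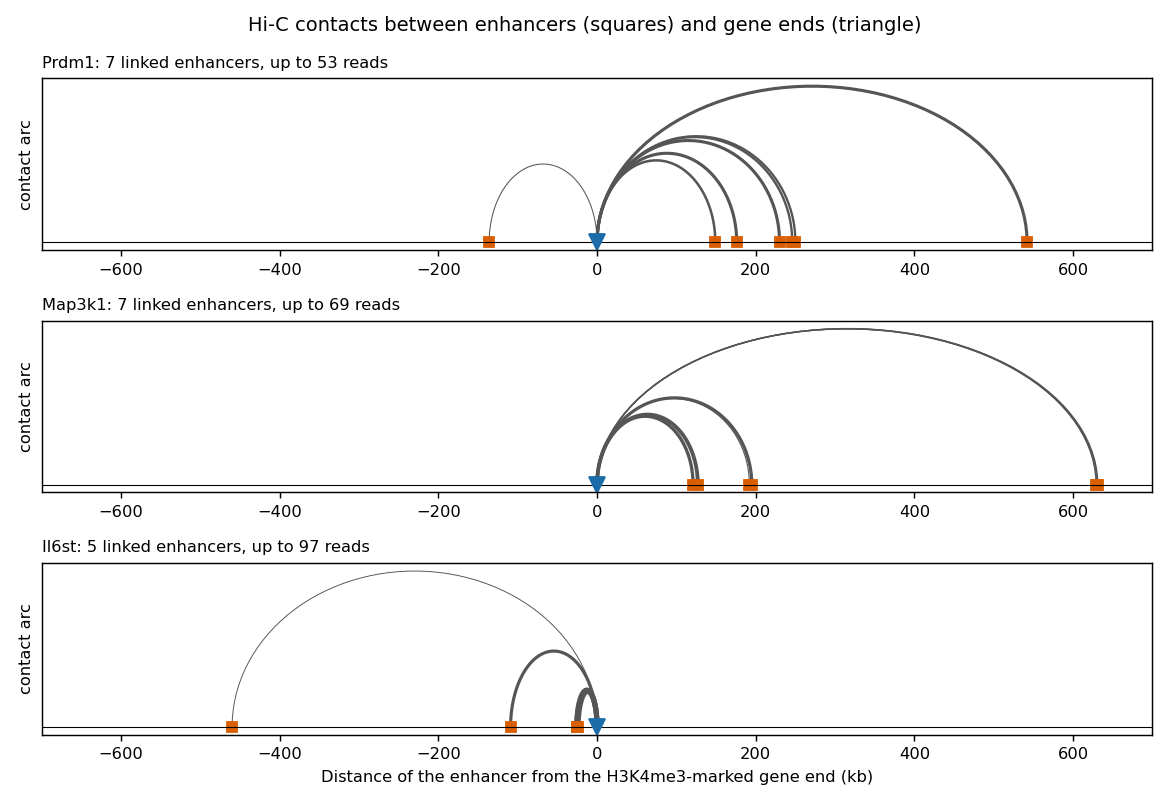
Hi-C links of distal acetylated enhancers to Prdm1, Map3k1 and Il6st, drawn by distance from the linked gene end (kb); each square is an enhancer, each triangle a gene end, and a thicker arc has more reads. Prdm1 had 6 linked enhancers on one side and 1 on the other, and 3 enhancers beside Il6st were linked to Il6st and to Map3k1.

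Rrbp1, a ribosome receptor of the endoplasmic reticulum, was linked to 6 enhancers on one side at 102 to 222 kb, with 5 to 75 reads. It had 20.3 and 16.3 FPKM in resting and 56.2 and 90.5 FPKM in activated cells (log2 change 1.91 ± 0.26, limma adjusted p = 0.00126). Both activated samples lay above both resting ones. Atf6, with 15.7 and 13.8 against 51.3 and 54.3 FPKM (log2 change 1.78 ± 0.16, limma adjusted p = 0.000264), was linked to 7, of which 3 lay within 500 kb and 4 at 4940 to 13850 kb with 5 or 6 reads. Cdkn1b, the gene of the cell cycle inhibitor p27, had the most linked enhancers, 8, but all at 1541 to 14808 kb and with 5 to 9 reads. It had 55.2 and 67.6 against 39.8 and 43.3 FPKM (limma adjusted p = 0.0449), and lost its call with each 1 of the 4 samples left out (adjusted p = 0.0651 to 0.287). Ptpn1, Tiprl, Aff1 and Zfp326, each linked to 6, were not called (limma adjusted p = 0.0962, 0.128, 0.761 and 0.844). Close enhancers can share an anchor, so these counts are not counts of separate contacts. The 6 enhancers of Tiprl and the 6 of Aff1 rested on 3 contacts each, and the 8 of Cdkn1b on 7. Beyond 1 Mb lay all 6 of Tiprl and 5 of Aff1.

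A gene was nearest gene and partner of at least 2 of the same enhancers in 26 cases, and of at least 3 in 4 cases. Il6st, Camk2d, Rasgrp3 and Rftn1 had 3 such enhancers each, and those with 2 included Cnr2, Ctla4, Cxcr4, Mtss1, Rapgef3, Snx30 and Atf7ip. Rftn1, a lipid raft protein of B cells, had 4 enhancers inside its locus and rose from 39.2 and 38.4 to 80.7 and 91.4 FPKM (limma adjusted p = 0.00237). Mtss1 and Snx30 fell 2.14-fold and 2.36-fold and Rapgef3 rose 3.07-fold (limma adjusted p = 0.0014, 0.000905 and 0.000765). Camk2d had 29.4 and 27.5 against 24.5 and 21.9 FPKM (limma adjusted p = 0.168). Rasgrp3 was called higher (limma adjusted p = 0.0396). It lost its call with each 1 of the 4 samples left out and when the medians of tested genes were made equal (adjusted p = 0.0568 in the latter).

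Of the 82 enhancers with no gene within 100 kb, 61 had a contact and 58 a linked gene. They were linked to 75 genes, of which 74 were tested, with 23 higher (31.1%) and 25 lower (33.8%). Over all tested genes the shares were 28.2% and 26.2%, and over all linked genes of the class 33.5% and 21.8%. The 82 include 5 of the 7 enhancers linked to Prdm1 and 4 of the 7 linked to Map3k1. The group between Fcrlb and Dusp12 reached B4galt3 by 3 enhancers. B4galt3 had 21.4 and 20.5 against 11.2 and 9.68 FPKM and Dusp12, a phosphatase gene, 9.33 and 8.27 against 20.5 and 18.8 FPKM (limma adjusted p = 0.00244 and 0.00143), while Fcrlb had 0.307 and 0.522 against 0.781 and 0.573 FPKM and was not tested. The group inside Adap1 reached Mcm7, a replication helicase gene, by 3 enhancers. Adap1 rose from 9.01 and 10.7 to 38.1 and 45.6 FPKM and Mcm7 from 9.41 and 14 to 40 and 58.9 FPKM (limma adjusted p = 0.00023 and 0.00107). These genes are named because their groups are, and not by the size of their change.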

How the data were processed

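RNA, peaks and contacts were used as deposited by the authors. Per the submitters' processing notes the tools were TopHat2, STAR, Bowtie, Bowtie2, HOMER and bedtools and the build mm9, with no role given. The deposited RNA table (23812 genes) names no unit. The values deposited by the authors were treated as FPKM, scaled for gene length and reads before deposit, since they are not whole and their sums differ (244602 and 287884 in resting, 285068 and 285129 in activated samples), so the depth is unknown. Symbols that had become dates (27 rows) or stood on several rows (265 symbols) were counted and never named. Strand is not given, so that antisense or overlapping genes are not separable. Peak lists, 1 per assay, give positions only. The labels name those of FAIRE and ChIP-seq in the descriptions of replicate 1. Whether these lists also draw on other replicates is not known here. The deposited Hi-C list gives a read count per contact over pooled replicates. A score per contact (a z-score, whose making is not given in the sources used here) was also deposited by the authors and not used.

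Coordinates are 1-based mm9. Genes with at least 1 FPKM in 2 samples were fitted with limma 3.58.1 (R 4.3.3; trend, robust) on log2(FPKM + 1), activated against resting, and called at a Benjamini-Hochberg adjusted p under 0.05. The fit was tested on simulated data. The nearest gene was the closest locus within 100 kb of the enhancer's centre. The regions, lists and tests were chosen with earlier results of these data known. Genes were named by rule: the 12 nearest to the most enhancers, the 10 largest rises and falls among called nearest genes whose groups do not overlap and whose higher mean is at least 5, the 10 with the most linked enhancers, up to 4 per list with the most enhancers, and the 10 that are most often nearest and linked at once, without immunoglobulin segments and predicted names. A few genes named by it are not reported here. Alternatives were another pseudocount, no filter, a replicate block, equal medians, each sample left out, other rules for the regions and other rules for contacts.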

Additional observations from a re-analysis of the deposited data

How the results depend on the processing

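The number of enhancers and their shares in genes kept their values within 1.5 times when the H3K4me3 distance was 0, 2 or 5 kb or the H3K27ac overlap 50%. With 1 sample left out, all genes had 1735 to 2859 higher and 1191 to 2834 lower calls, nearest genes 158 to 195 higher and 170 to 296 lower, and linked genes 475 to 791 higher and 264 to 520 lower. The lowest counts of lower genes came without a resting replicate, and those fits test fewer genes and samples. Contacts of at least 10 reads, an alternative chosen after seeing the data since every deposited contact has at least 5, left 707 enhancers with a contact and 264 higher and 206 lower linked genes. Contacts of at most 1 Mb, also chosen after seeing the data, left 458 and 315, with 33% and 22.7% of the linked genes. Fewer contacts remain in both by construction.

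Of the 84 named genes with a fit, 84 kept direction and call with a pseudocount of 0.1, 78 without the filter (6 lost the call) and 79 with equal medians (1 lost and 3 gained the call). With an activated sample left out 77 of the 84 were fitted, and 68 and 67 kept both while 5 and 7 lost the call. With a resting sample left out 82 were fitted, and 67 and 75 kept both while 12 and 7 lost the call. Changes of sign concerned uncalled genes only. With 1 sample left out the log2 change ran from -0.174 to 0.043 for Aff1, -0.236 to 0.225 for Bcl2, -0.00609 to 0.617 for Cd83, -0.261 to 0.0141 for Lrrc8c and -0.039 to 0.114 for Zfp326, which had -0.0217 with equal medians. Making medians equal moved the median of all genes by -0.0585, and the share of calls that were higher from 51.9% to 48.5%.

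Samples with the same replicate number shared only that number: over 10863 genes their deviations from the group means had a correlation of 0.124, from 2 pairs, and the labels name no shared source. A fit with the replicate block called 3317 higher and 2964 lower genes, 251 and 299 of the nearest and 853 and 557 of the linked genes. With the block Cflar, Fchsd2, Irak3 and Ubac2 passed (adjusted p = 0.0479, 0.0227, 0.0378 and 0.0479) and Hbb-b1 did not (0.13). Unknown RNA depth limits genes near the filter, and contacts of 5 reads leave single links uncertain.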

Other observations

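The most connected distal acetylated enhancer lay in the MHC region (chr17:34371956-34372256, mm9), nearest to H2-Ob. It had 28 contacts and 21 linked genes, among them the class II genes H2-DMa, H2-DMb1, H2-DMb2 and H2-Oa, the peptide-loading and immunoproteasome genes Tap1, Tap2, Psmb8 and Psmb9, and the bromodomain gene Brd2. Of 20 tested, 4 were higher and 6 lower in activated cells. H2-DMb2 fell from 273 and 263 to 73 and 53.8 FPKM (limma adjusted p = 0.000557), and Brd2 had 76.9 and 67.1 against 65 and 74.9 FPKM (limma adjusted p = 0.868). Near-identical MHC genes can share reads, so their values are uncertain. An enhancer in a histone gene cluster (chr13:23643411-23643710), nearest to Hist1h4f, was linked to 13 genes, most of them histone genes, and reads of near-identical histone genes may also be shared.

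Super-enhancers, long domains of H3K27ac, held few of these regions: 16 of the 1582 lay in 12 of the 48. The domain at chr6:70683825-70702848 held 3, all nearest to Rpia, an enzyme gene of the pentose phosphate pathway. Nearest is a matter of position alone, and which gene this domain acts on was not tested. Rpia had 22.6 and 29.7 against 38 and 47.4 FPKM (limma adjusted p = 0.0277), and lost its call without activated replicate 2 (adjusted p = 0.093) or resting replicate 1 (adjusted p = 0.209). The super-enhancer near Tnfrsf13b, which encodes the receptor TACI, held 1, and Tnfrsf13b rose from 30.9 and 25.9 to 96.9 and 99.8 FPKM (limma adjusted p = 0.000443). Rpia and Tnfrsf13b were not named by the rule for genes, and other super-enhancers with a region lay beside genes of either direction. H2-Aa and Susd1 were lower (limma adjusted p = 0.00226 and 0.00083), Rilpl2 was higher (limma adjusted p = 6.65e-05) and Fchsd2 was not called (limma adjusted p = 0.0544).

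In the deposited order of STARR peaks in open chromatin, whose meaning the files do not state, the median percentile of distal acetylated enhancers was 58.1, against 60.8 for distal peaks without H3K27ac and 43.5 for those near H3K4me3.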
